A study of Mus musculus with 4 samples.

Results

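The chemokine and sphingosine 1-phosphate (S1P) receptors that guide blood cells into and out of the bone marrow were described here as 10 genes, Cxcr4, Ccr9, Ccr7, Ccr2, Ccr1, Cxcr2, Cx3cr1, S1pr1, S1pr2 and S1pr4, chosen by symbol among 12742 genes with a value in at least 1 library. RNA-seq was carried out on bone marrow of C57BL/6 mice, WT or GRK6-/-, from which hematopoietic stem cells (HSC) were sorted by the gate Lin-c-kit+sca-1+ and common lymphoid progenitors (CLP) by the gate Lin-c-kit+sca-1+Il-7Ra+. GRK6-/- mice lack exons 3 to 9 of Grk6, which encodes a kinase that phosphorylates activated G protein-coupled receptors, and mice in the study were 8 to 12 weeks old unless stated otherwise. Each of the 4 libraries pooled 13 to 15 cells from 3 to 4 mice, whose cDNA had gone through 20 plus 10 PCR cycles cell by cell, so every group had 1 library and no replicates. Values are FPKM, that is, fragments scaled by transcript length and by all mapped fragments of the library.

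All 10 receptors belong to the G protein-coupled receptor superfamily and signal largely through the inhibitory G protein class, with S1PR2 coupling also to the G12/13 class. Chemokines held on stromal cells draw progenitors into marrow, thymus or inflamed tissue, and CXCL12 acting on CXCR4 keeps stem cells in the marrow, whereas the S1P gradient between tissue and blood draws cells out through S1PR1. Receptors bound to ligand are phosphorylated on their tails by G protein-coupled receptor kinases and then bound by arrestins, which ends the signal. The comparisons asked how the RNA of these receptors differed between GRK6-/- and WT in each population, and between CLP and HSC in each genotype.

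The files held between 10056 and 11060 rows per library, and a gene without a row is written here as having no row, because the files do not say why. Low values fell mostly on steps of whole fragments, and these steps put the depth at about 2870000 fragments for WT HSC and 3780000 for GRK6-/- HSC, and at 4350000 and 2770000 for WT CLP and GRK6-/- CLP. These estimates are below the number of paired-end reads that the paper reports for each lineage, and the cause of the difference was not tested. The depths may thus be too low, and the fragment numbers below too few. The 95% intervals given below are exact Poisson intervals of the estimated fragments, or exact binomial (Clopper-Pearson) intervals for a ratio, and cover counting error only, not the variation between cells, mice or PCR reactions. For Grk6 itself, WT and GRK6-/- HSC had 42.7 and 89.4 FPKM, and WT and GRK6-/- CLP had 26.9 and 57.6 FPKM. It was thus higher in both knockout libraries, and since a value per gene also counts fragments outside the deleted exons, it cannot check the labels, on which the direction of every genotype difference below rests. The sort marker Il7r was at 120.1 FPKM in WT CLP and 75.1 in GRK6-/- CLP, at 1.08 in GRK6-/- HSC and without a row in WT HSC. Kit was between 26.2 and 81.8 FPKM in the 4 libraries, while Ly6a (Sca-1) shared a row with another symbol in at least 1 library and was left out.

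The receptors were unevenly spread over the libraries. A row of their own was found for 8 of the 10 genes in WT CLP but 4 in GRK6-/- CLP, and for 6 and 7 in HSC of WT and GRK6-/- mice, and the plot of receptor levels by library shows which. Cxcr4 and S1pr2 had a row in all 4 libraries, Ccr9, Cxcr2, S1pr1 and S1pr4 in 3, Ccr7 and Ccr2 in 2 and Cx3cr1 in 1. For comparison, 8246 of the 12417 genes that never shared a row had one in all 4 libraries. All rows numbered 10056 in WT CLP and 10328 in GRK6-/- CLP. Ccr1, a receptor for CCL3 and CCL5 on myeloid cells (chromosome 9 of mm9, 123876959 to 123883525), had no row in any library. If the missing row stands for a count of 0, which allows up to 3 fragments, levels of Ccr1 up to between 0.244 and 0.383 FPKM, depending on the library, remain possible. In HSC the order of levels was led by S1pr4, whose interval did not overlap that of the next gene, in WT (Cxcr4) or in GRK6-/- (S1pr2). In WT CLP the order began with Ccr2 and Cx3cr1, which could not be separated by their intervals, followed by Ccr7. In GRK6-/- CLP it began with Ccr9, and S1pr4 and S1pr2 came next with overlapping intervals.

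**Figure D1:**
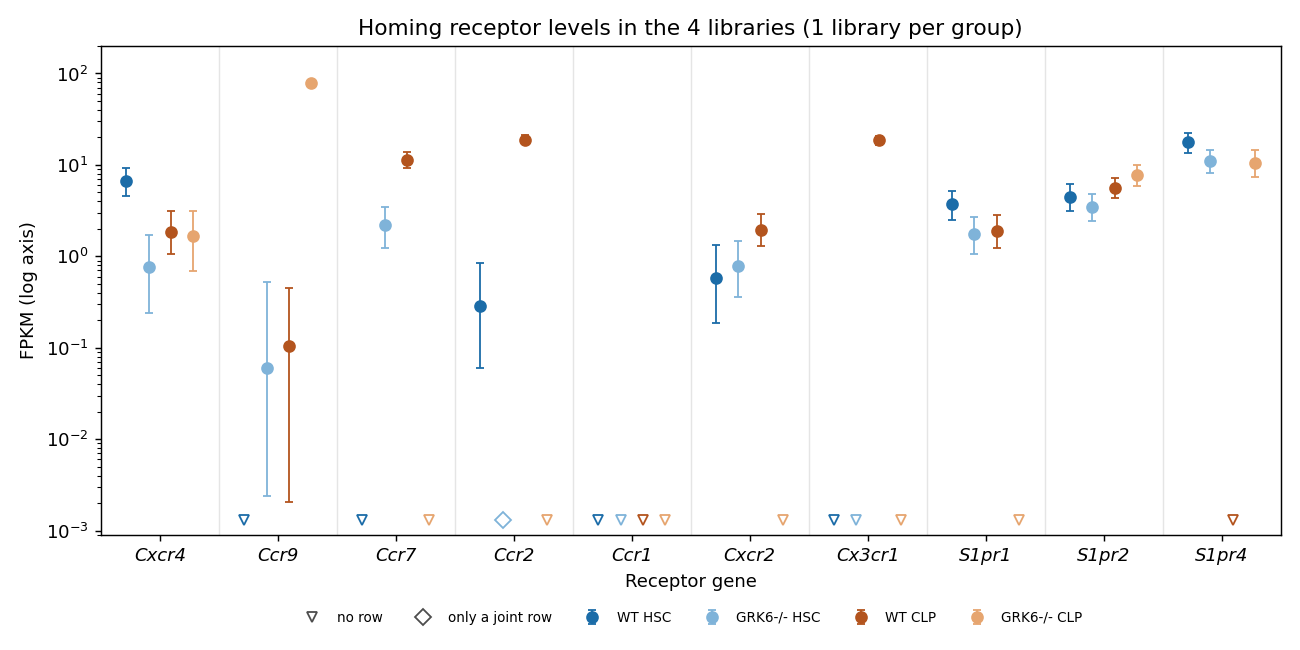
FPKM (log axis) of the 10 receptor genes in the 4 libraries, 1 per population and genotype. Bars are 95% Poisson intervals of the estimated fragments, open triangles mark libraries without a row, and the open diamond marks a library where Ccr2 had only a joint row, neither with a height on the axis. Ccr9 stands at 79.1 FPKM in GRK6-/- CLP alone, whereas S1pr2 lies between 3.47 and 7.75 in all libraries.

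CXCR4 is the receptor for CXCL12 and the main retention receptor of stem cells. The gene (chromosome 1, 130484776 to 130488876, minus strand) was at 6.63 FPKM in WT HSC (95% interval 4.54 to 9.17, about 34 fragments) and at 0.757 FPKM in GRK6-/- HSC (0.238 to 1.71, about 5 fragments). In CLP it had 1.85 FPKM (1.07 to 3.15) in WT and 1.67 (0.692 to 3.16) in GRK6-/-. WT HSC was thus the high library, and the intervals of the other 3 overlapped one another. The level in WT HSC was 8.77 times that in GRK6-/- HSC (3.49 to 29.4) and 3.58 times that in WT CLP (1.82 to 6.78), while in CLP the genotypes differed by a ratio of 0.900 (0.308 to 2.10, GRK6-/- over WT). Fewer cells with the transcript and less transcript per cell cannot be told apart in such pools, here or for any receptor below. Its ligand Cxcl12 had a row only in GRK6-/- HSC, at 0.146 FPKM. Markers of other cells differed between the HSC libraries too. The erythroid list summed to 343.1 FPKM in WT and 1727 in GRK6-/-, with 8 of 9 members past 2-fold higher in GRK6-/- (19.3% of 11624 genes were), and the megakaryocyte list to 201.8 and 37.3 FPKM, with 2 of 8 higher and 4 lower. Over all genes, 18.0% were lower and 37.4% past 2-fold in either direction. Of the monocyte and dendritic cell list, 3 of 9 were higher and 1 lower, with Irf8 at 1.12 FPKM in WT and 41.2 in GRK6-/-. Of the neutrophil lineage list, 0 of 9 were higher and 4 lower, with S100a8 at 1706 FPKM in WT and 106.3 in GRK6-/-. The stem and progenitor list itself had 2 of 12 higher and 3 lower. The part of these lists in the HSC values of Cxcr4 and Ccr7 was not tested.

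Of the lymphoid homing receptors, CCR9 binds CCL25 and directs progenitors to the thymus and gut. Ccr9 (chromosome 9, 123676329 to 123692575, plus strand) had no row in WT HSC and about 1 fragment in each of GRK6-/- HSC (0.0595 FPKM) and WT CLP (0.104 FPKM). In GRK6-/- CLP it had 79.1 FPKM (72.9 to 85.5, about 619 fragments), and 10.7% of the rows of that library were higher. The level was 760 times that of WT CLP (174 to 38455), with the wide interval set by the single fragment in WT CLP. Of 1734 genes with at least 50 FPKM in GRK6-/- CLP, 0.404% had no row or under 0.2 FPKM in each other library, as Ccr9 did, limits that were chosen with its values known. The ligand gene Ccl25 had a row only in GRK6-/- HSC, at 18.4 FPKM.

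Markers of other cells also differed between the CLP libraries. Of 9 erythroid markers with a row, 9 were past 2-fold higher in GRK6-/- CLP than in WT CLP, against 26.6% of 11191 genes, with a summed level of 18177 against 154.5 FPKM, most of it Hba-a2 at 17220 FPKM. Of 8 B lineage markers, 8 were past 2-fold higher, with a summed level of 1610 against 247.8 FPKM, although Pax5 and Ms4a1 had no row in any library. Siglech, a marker of plasmacytoid dendritic cells, was at 277.9 FPKM in GRK6-/- CLP and 10.03 in WT CLP. The monocyte and dendritic cell list summed to 860.0 against 520.8 FPKM, with 2 of 9 members past 2-fold higher and 2 lower (23.4% of all genes were lower). The part of these cells in the level of Ccr9 was not tested.

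**Figure D2:**
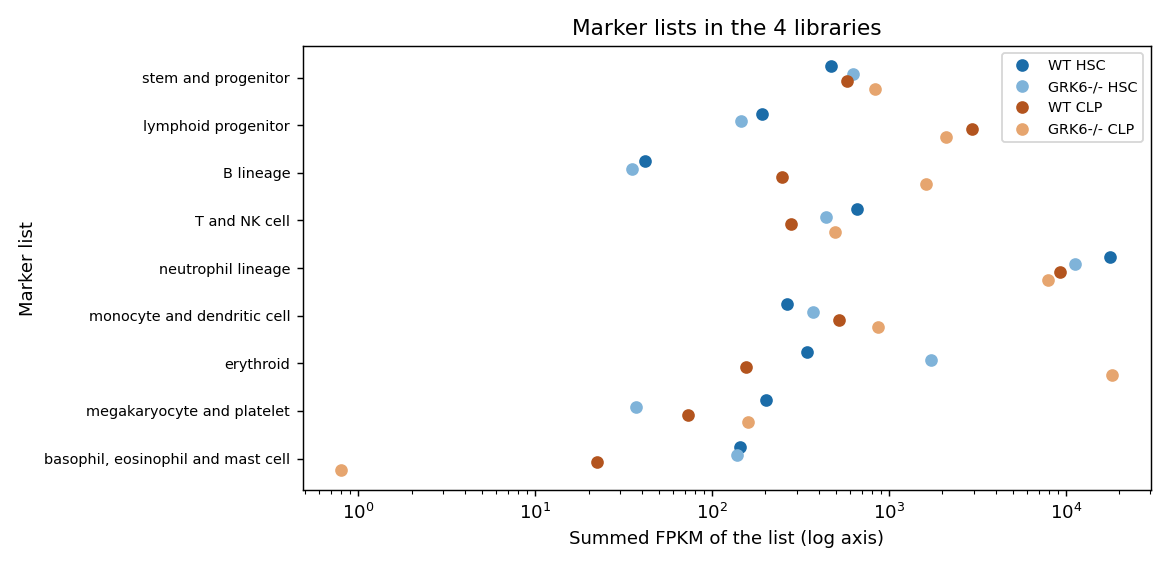
Summed FPKM (log axis) of each marker list in the 4 libraries, 1 point per library. The erythroid list reaches 18177 FPKM in GRK6-/- CLP against 154.5 in WT CLP, and the lymphoid progenitor list separates the CLP libraries (2949 and 2102 FPKM) from the HSC libraries (190.2 and 145.4 FPKM). In WT and GRK6-/- CLP much of the lymphoid sum is Ly6d (1438 and 1051 FPKM) and Dntt (931.3 and 562.1 FPKM). Of the 10 lymphoid markers, 1 was past 2-fold higher and 4 lower in GRK6-/- CLP than in WT CLP, against 26.6% and 23.4% of all genes.

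CCR7, the receptor for CCL19 and CCL21 that leads cells to lymph nodes and, with CCR9, to the thymus, showed another order. Ccr7 (chromosome 11, 99005513 to 99016391, minus strand) was at 2.20 FPKM (1.22 to 3.47) in GRK6-/- HSC and at 11.3 FPKM (9.15 to 13.8, about 97 fragments) in WT CLP, and had no row in WT HSC or GRK6-/- CLP. WT CLP was the high library, and the intervals of the libraries with a row did not overlap. Thus Ccr9 and Ccr7 were each past 2-fold between the CLP libraries, with Ccr9 the higher in GRK6-/- and Ccr7 the higher in WT. The ligand Ccl19 was low, between 0.154 and 1.15 FPKM in the 3 libraries with a row, and Ccl21a, Ccl21b and Ccl21c had no row in any.

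The inflammatory receptors CCR2 and CX3CR1, known best from monocytes and their precursors, both had their highest own value in WT CLP. Ccr2 (chromosome 9, 124016922 to 124023879, plus strand) reached 18.8 FPKM (16.7 to 21.1, about 294 fragments) in WT CLP, against 0.289 (0.0599 to 0.849, about 3 fragments) in WT HSC and no row in GRK6-/- CLP. In GRK6-/- HSC it had no value of its own, because the files gave it there only in a row joined with another symbol. Cx3cr1 (chromosome 9, 119957811 to 119977400, minus strand) had 18.5 FPKM (16.5 to 20.7, about 300 fragments) in WT CLP and no row in the other 3. WT CLP was the high library for Cx3cr1 and, of the 3 with a value or a missing row, for Ccr2, which in it was 65.0 times its level in WT HSC (21.9 to 316). Of 1707 genes with an FPKM of 10 to 20 in WT CLP, 7.79% had no row in GRK6-/- CLP and 1.58% had no row in any other library. Ccr7, Ccr2 and Cx3cr1 all lay in that range and had no row in GRK6-/- CLP, and Cx3cr1 had none in any other library. The range was chosen with these values known.

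Monocyte and dendritic cell markers were listed in both CLP libraries. Csf1r, which encodes the receptor that defines the monocyte lineage, had 16.6 FPKM in WT CLP and no row in GRK6-/- CLP, and 11.6 FPKM in GRK6-/- HSC, where Cx3cr1 had no row. Ctss and Siglech were higher in GRK6-/- CLP, at 187.8 and 277.9 FPKM against 36.8 and 10.03 in WT CLP. Irf8 ran at 152.2 and 190.3 FPKM and Ly86 at 27.8 and 18.3 FPKM in WT CLP and GRK6-/- CLP. The whole list had 9 of 9 measured members with a row in WT CLP and 7 of 9 in GRK6-/- CLP, where Csf1r and Itgam had none, and its part in the levels of Ccr2 and Cx3cr1 was not tested.

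The 250 bases before the gene start of Ccr2 and Cx3cr1 are shown because both genes had their highest own value in WT CLP. They are RefSeq sequences of build GRCm38.p6 and not of the mm9 build of the files (plus strand chr9:124101933-124102182 for Ccr2, minus strand chr9:120068297-120068546 for Cx3cr1, each read 5′ to 3′ along its gene), and capitals mark a match, on either strand, to the PU.1 core GAGGAA, the RUNX core TGTGGT, the E-box CAGCTG or the GC box GGGCGG.
Ccr2: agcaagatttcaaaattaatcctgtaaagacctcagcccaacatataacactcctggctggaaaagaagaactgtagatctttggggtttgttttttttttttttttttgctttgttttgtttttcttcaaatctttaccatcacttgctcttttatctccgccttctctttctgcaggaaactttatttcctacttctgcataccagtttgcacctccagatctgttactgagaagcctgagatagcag
Cx3cr1: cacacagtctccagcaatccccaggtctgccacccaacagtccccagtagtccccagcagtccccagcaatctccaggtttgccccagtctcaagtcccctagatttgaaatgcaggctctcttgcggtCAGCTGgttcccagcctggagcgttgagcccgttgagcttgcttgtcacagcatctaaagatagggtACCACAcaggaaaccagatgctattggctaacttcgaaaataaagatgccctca
The letters of these motifs were not in the Ccr2 window, whereas the Cx3cr1 window held 1 match to TGTGGT and 1 to CAGCTG. These motifs occur in 14% and 13.1% of the 32536 windows of the same length before all gene starts, GAGGAA in 23.4% and GGGCGG in 33.0%. None of the matches is known to be a bound site. Such windows were at hand for 8 of the 10 receptors, not for Ccr7 and S1pr1, and the one of Cxcr4 held 3 matches to GGGCGG. That of Ccr1 held 1 match to GAGGAA and 1 to TGTGGT, and that of Cxcr2 held 1 to GAGGAA. The windows of Ccr9, S1pr2 and S1pr4 held no match.

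CXCR2, the receptor through which CXCL1, CXCL2 and CXCL5 recruit neutrophils, was low throughout. Cxcr2 (chromosome 1, 74200568 to 74207820, plus strand) had 0.574 FPKM (0.186 to 1.34) in HSC of WT and 0.776 (0.358 to 1.49) in those of GRK6-/- mice. In CLP it had 1.96 FPKM (1.29 to 2.89) in WT and no row in GRK6-/-. The intervals of the HSC libraries overlapped each other and, narrowly, that of WT CLP, which was 3.41 times WT HSC (1.30 to 11.5). Cxcl1, Cxcl2, Cxcl3 and Cxcl5 had no row in any library, and Ppbp, which encodes a platelet ligand of CXCR2, had 2.20 FPKM in GRK6-/- HSC alone. The neutrophil lineage list, which holds Elane and Mpo, was high in all 4 libraries, with summed levels between 7862 and 17830 FPKM. Most of each sum came from Elane (3516 to 7008 FPKM), Prtn3 (1936 to 3494), Mpo (889.9 to 3550) and Ctsg (918.6 to 1958). Of its 12 members, 3 were past 2-fold higher and 3 lower in GRK6-/- CLP than in WT CLP, against 26.6% and 23.4% of all genes. Ltf and Mmp8 had a row in WT CLP alone, and S100a9 had 268.8 FPKM in WT CLP and no row in GRK6-/- CLP. Ngp had a row in GRK6-/- CLP alone, Camp had no row in WT CLP and 68.0 FPKM in GRK6-/- CLP, and Fcnb had 0.736 and 106.3 FPKM. The part of these markers in Cxcr2 was not tested.

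The S1P receptors differed among themselves. S1PR1 draws cells from tissue into blood and lymph, and S1pr1 (chromosome 3, 115413351 to 115417973, minus strand) had 3.69 FPKM (2.52 to 5.20) in HSC of WT and 1.73 (1.07 to 2.69) in those of GRK6-/- mice. In CLP it had 1.89 FPKM (1.23 to 2.80) in WT and no row in GRK6-/-, where 3 fragments would have given 0.358 FPKM. WT HSC was highest, at 2.13 times GRK6-/- HSC (1.17 to 3.89) and 1.95 times WT CLP (1.11 to 3.41). Klf2, which encodes a transcription factor known to drive S1pr1 in T cells, had another order, with 87.1 and 36.6 FPKM in WT and GRK6-/- CLP, 0.907 in GRK6-/- HSC and no row in WT HSC. Cd69, whose product takes S1PR1 off the cell surface, had 24.9 and 11.9 FPKM in WT and GRK6-/- HSC and 0.60 and 22.0 in WT and GRK6-/- CLP.

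S1PR2 restrains migration toward S1P. Its gene had a smaller span of levels than Cxcr4, the only other receptor with a row in all 4 libraries. Over the 3 libraries where each had a row, S1pr1 and S1pr4 had smaller spans, 2.13 and 1.67 times. S1pr2 (chromosome 9, 20770396 to 20781237, minus strand) had 4.49 FPKM (3.12 to 6.17) in HSC of WT and 3.47 (2.45 to 4.79) in those of GRK6-/- mice. In CLP it had 5.65 FPKM (4.39 to 7.14) in WT and 7.75 (5.88 to 9.92) in GRK6-/-. Both CLP libraries were above both HSC libraries, but the intervals of a CLP and an HSC library overlapped except for GRK6-/- CLP and GRK6-/- HSC, and the highest was 2.24 times the lowest. Among 1615 genes with a row in all 4 libraries and no value of 10 FPKM or more, 13.7% had a span as small as that or smaller, a limit taken from S1pr2 itself. GRK6-/- over WT was 0.772 in HSC (0.479 to 1.27) and 1.37 in CLP (0.950 to 1.96), and both intervals included no difference.

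S1PR4 is found mainly on lymphoid and myeloid cells. S1pr4 (chromosome 10, 80960490 to 80962882, minus strand) had 17.7 FPKM (13.5 to 22.5) in HSC of WT and 11.1 (8.16 to 14.4) in those of GRK6-/- mice. In CLP it had no row in WT and 10.6 FPKM (7.41 to 14.6) in GRK6-/-. The intervals of the 3 libraries with a row overlapped, and WT HSC was 1.60 times GRK6-/- HSC (1.09 to 2.37). In WT CLP 3 fragments would have given 0.561 FPKM, and no other row of a single symbol covered the gene there. Joint rows were not searched for this. In WT HSC, where S1pr4 was highest, a row named Nfic also overlapped the locus. The fragments behind the S1pr4 values are estimated from an annotated transcript of 1230 bases, shorter than the deposited locus of 2393 bases, so they may be too few and the intervals too wide.

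Fold thresholds were applied to the log2 ratio of FPKM + 1, which understates the change of low genes, with past 2-fold meaning an absolute log2 ratio of at least 1. Ccr2 was left out of these counts because of its joint row, and genes without a row in both libraries were not compared. Between the HSC libraries 2 of 7 receptors were past 2-fold in GRK6-/- against WT, Cxcr4 lower (log2 ratio -2.12) and Ccr7 higher (1.68, from no row), against 37.4% of 11624 genes, 19.3% higher and 18.0% lower. The median log2 ratio was -0.30 over the 7 receptors and 0.05 over all genes. Between the CLP libraries 6 of 8 were past 2-fold, Ccr9 (6.18) and S1pr4 (3.54, from no row) higher and Ccr7 (-3.62), Cx3cr1 (-4.29), Cxcr2 (-1.57) and S1pr1 (-1.53) lower in GRK6-/-, the last 4 to no row, against 50.0% of 11191 genes, 26.6% higher and 23.4% lower. The medians were -0.81 and 0.05. Leaving joint rows out per comparison, an alternative added after the data were seen, brought in Ccr2 and made it 7 of 9. The share of all genes was not computed for that alternative.

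In CLP against HSC of WT mice, 4 of 8 receptors were past 2-fold, against 46.5% of 11202 genes, 21.8% higher and 24.7% lower in CLP. Ccr7 (3.62) and Cx3cr1 (4.29) were higher in CLP, each from no row, and Cxcr4 (-1.42) and S1pr4 (-4.22, to no row) lower. In GRK6-/- mice 3 of 7 were past 2-fold, against 45.6% of 11708 genes, 22.3% higher and 23.4% lower in CLP. These were Ccr9 (6.24) higher and Ccr7 (-1.68) and S1pr1 (-1.45) lower in CLP, both to no row. The medians over receptors and over all genes were 0.21 and -0.08 in WT and -0.05 and -0.08 in GRK6-/-. The share of receptors past 2-fold was thus near that of all genes in the comparisons of populations and lower or higher, over 7 or 8 genes, in those of genotypes. The comparisons share libraries with each other, and their values are not independent.

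**Figure D3:**
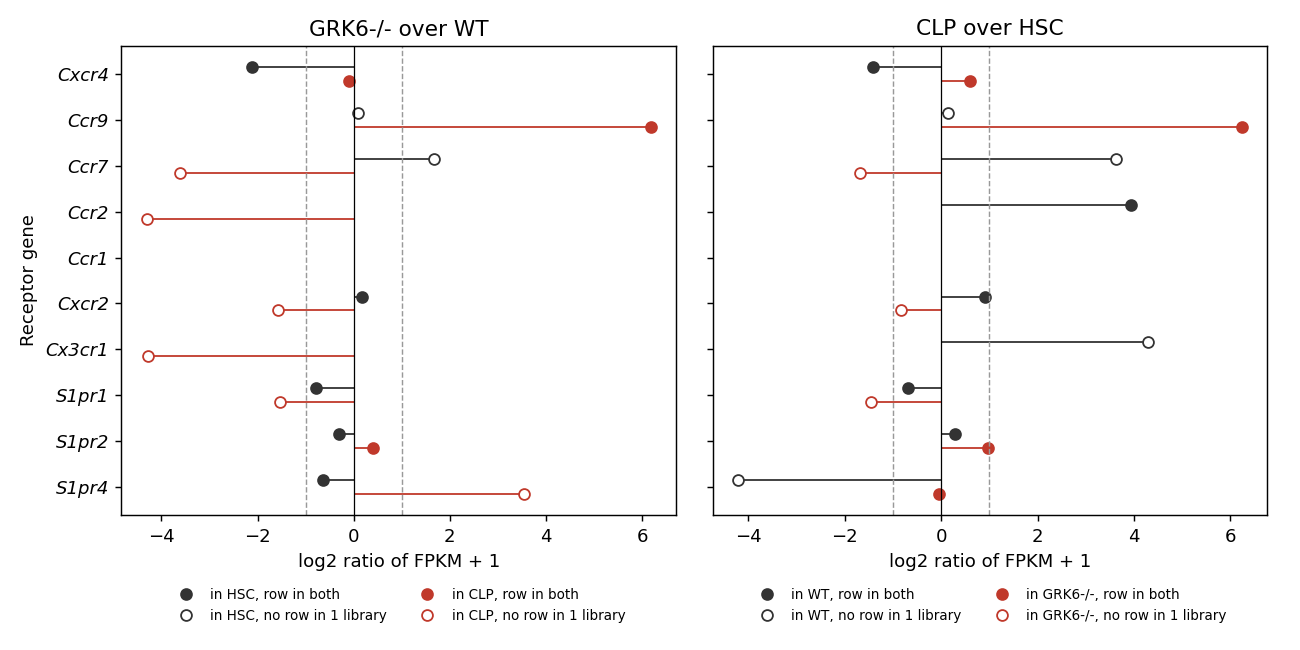
Log2 ratio of FPKM + 1 for each receptor, GRK6-/- over WT (left; dark, HSC; red, CLP) and CLP over HSC (right; dark, WT; red, GRK6-/-). Open points have no row in 1 of the libraries, dashed lines mark 2-fold, and Ccr2 is missing where it had only a joint row. Ccr7 lies at 1.68 in HSC and -3.62 in CLP in the left panel.

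A test was possible only with the other population or genotype standing in for a replicate. limma was fitted to all 4 libraries, with a term for genotype and a term for population. There, 0 of 11230 genes (0.00%) had an adjusted p under 0.05 for genotype and 500 had an unadjusted p under 0.05. For population, 1 gene (0.00890%) passed, Ly6d, a surface marker of CLP that had no row in the HSC libraries and 1438 and 1051 FPKM in WT CLP and GRK6-/- CLP (limma, adjusted p = 0.0297). Of the 8 receptors tested, Ccr9 had the largest estimates, 3.13 ± 1.4 (log2, SE) for GRK6-/- over WT (adjusted p = 0.999) and 3.19 ± 1.4 for CLP over HSC (adjusted p = 0.916). Those of Cxcr4 were -1.11 ± 0.99 (adjusted p = 0.999) and -0.41 ± 0.99 (adjusted p = 0.982), those of S1pr4 1.45 ± 1.17 (adjusted p = 0.999) and -2.14 ± 1.17 (adjusted p = 0.920). With 1 residual degree of freedom these values do not show that the receptors were alike.

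Other chemokine receptors were listed in few libraries as well. Of 16, 7 had no row in any library, 8 had at least 1 row of their own and 1 was left out for a joint row, and none of the 8 had a row in all 4 libraries. Cxcr6, the receptor for CXCL16, had 11.6 and 11.8 FPKM in WT and GRK6-/- HSC and 13.5 in GRK6-/- CLP, with no row in WT CLP, and Cxcr3 had 4.14, 2.08 and 5.72 FPKM in the same libraries. The missing library was the same as that of S1pr4, but for Cxcr6 a row named Fyco1 covered the locus there. Ccr6, known from B cells and T helper subsets, had 2.31 FPKM in GRK6-/- HSC and 100.6 in GRK6-/- CLP and no row in either WT library. Ackr1 (listed as Darc), an atypical receptor of erythroid and endothelial cells, had a row in GRK6-/- CLP alone, at 33.9 FPKM. Ccrl2 ran at 12.1 FPKM in WT CLP, at 0.851 and 1.02 in the HSC libraries and without a row in GRK6-/- CLP, and Ccr3 had 4.60 FPKM in WT CLP and 0.110 in GRK6-/- CLP. All 6 that could be compared between the CLP libraries were past 2-fold, 4 higher and 2 lower in GRK6-/-, against 50.0% of all genes, and 1 of 6 was between the HSC libraries, against 37.4%.

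Among ligands of the receptors, 9 of 20 genes had a row in some library, as the heat map of related genes shows. Ccl5, a ligand of CCR1 and CCR3, had 99.7 and 20.7 FPKM in HSC of WT and GRK6-/- mice and no row in CLP. Ccl9, a ligand of CCR1, had 35.9 and 57.0 FPKM in WT and GRK6-/- HSC and 32.7 and 2.53 in WT and GRK6-/- CLP. Ccl3 had 0.537 and 14.3 FPKM in HSC of WT and GRK6-/- mice, 51.9 in WT CLP and no row in GRK6-/- CLP. In the same libraries Ccl6 had 11, 0.197 and 1.20 FPKM and again no row in GRK6-/- CLP. These ligands of CCR1 were thus listed in libraries where Ccr1 itself had no row. Cx3cl1, the ligand of CX3CR1, had 0.916 FPKM in GRK6-/- HSC and 12.5 in GRK6-/- CLP and no row in WT CLP, the library where Cx3cr1 had its row. Between the HSC libraries 5 of 9 ligands were past 2-fold, 3 higher and 2 lower in GRK6-/-, against 37.4% of all genes, and between the CLP libraries 5 of 5, 2 higher and 3 lower, against 50.0%.

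**Figure D4:**
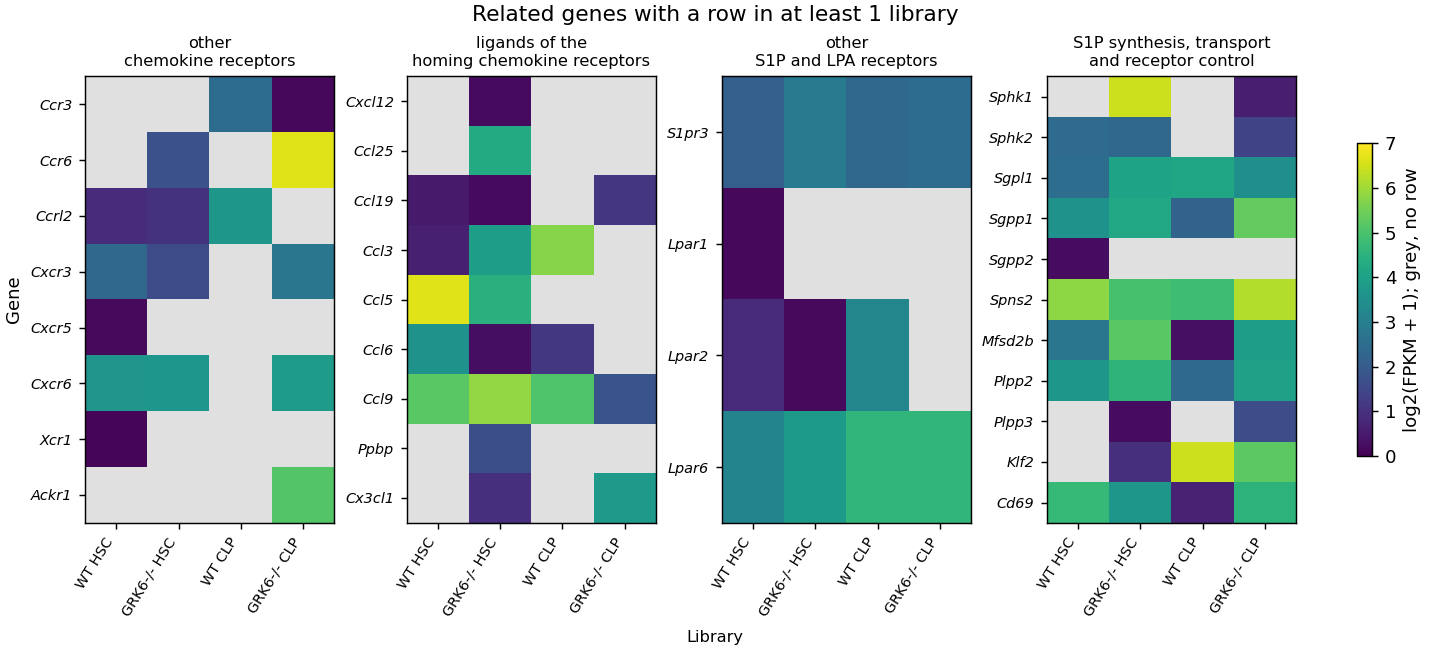
Log2(FPKM + 1) in the 4 libraries of genes related to the receptors, in 4 fixed lists, with genes as rows, libraries as columns and grey for no row. Ccr6 and Ackr1 are bright in GRK6-/- CLP, Sphk1 in GRK6-/- HSC and Klf2 in the CLP libraries, and Spns2 has a value in every library.

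S1P supply and control genes were listed more widely than the other chemokine receptors and the ligands. Of 13 genes 11 had a row, 6 of them in all 4 libraries, against 8246 of the 12417 genes that never shared a row. Spns2, which encodes an S1P exporter, had 55.0 and 30.4 FPKM in WT and GRK6-/- HSC and 27.1 and 72.6 in WT and GRK6-/- CLP. Sphk1, which encodes a kinase that makes S1P, had 87.6 FPKM in GRK6-/- HSC, 0.501 in GRK6-/- CLP and no row in WT. Mfsd2b, an S1P exporter of erythroid cells and platelets, had 5.74, 36.0, 0.220 and 14.2 FPKM, and Sgpp1, an S1P phosphatase, 11.1, 17.0, 3.71 and 38.5 FPKM, in the order of libraries just given. In this order the erythroid list summed to 343.1, 1727, 154.5 and 18177 FPKM, and its part in these values was not tested. Past 2-fold were 4 of 11 genes between the HSC libraries, 3 higher and 1 lower in GRK6-/-, and 8 of 10 between the CLP libraries, 7 higher and 1 lower, where all genes had 37.4% and 50.0%. Of the other S1P and LPA receptors, S1pr3 had 3.36, 6.31, 4.06 and 4.51 FPKM and Lpar6 7.90, 13.0, 23.6 and 23.2 FPKM in this order, while S1pr5 had no row.

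Genes of the signalling machinery below the receptors gave a contrast in coverage. All 16 had a row in all 4 libraries, as had 8246 of the 12417 genes that never shared a row. Summed levels of the 16 were between 1205 and 1564 FPKM. Rac2, a blood cell GTPase of cell movement, was between 185.0 and 245.5 FPKM and Coro1a, an actin regulator, between 416.2 and 593.8. Past 2-fold were 3 of 16 between the HSC libraries, Lcp1, Rhoa and Wasf2, each lower in GRK6-/-, as were 18.0% of all genes. None of the 16 was higher, against 19.3% of all genes, and 37.4% of all genes were past 2-fold in either direction. Between the CLP libraries 3 of 16 were also past 2-fold, with Wasf2 higher and Vav3 and Pik3cg lower in GRK6-/-, against 50.0% of all genes. These genes were expressed higher than most of the receptors, and the part of level in this difference was not tested.

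Profiles most like those of the higher receptors were found by the distance of log2(FPKM + 1) over the 4 libraries among 11229 other genes. The nearest to Cx3cr1 were Oplah (distance 0.027), 4933437F05Rik (0.062) and 8430408G22Rik (0.062), and to Ccr7 Aplf (0.17), Nipa2 (0.19) and Capn3 (0.24). Those nearest to Ccr9 were Gm8439 (0.19), Gstm4 (0.44) and Spsb2 (0.44), with no row outside GRK6-/- CLP, where they had 73.7, 105.1 and 59.4 FPKM. For S1pr4 they were Itm2a (0.37), Cebpd (0.38) and Tcta (0.49), and for Cxcr4, which had no gene within 0.5, Ncs1 (0.53), Tmco3 (0.60) and Zfp703 (0.62). Profiles over 4 libraries are short, and such likeness is a description.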

How the data were processed

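RNA-seq covered 2 sorted populations of 2 genotypes, with 1 pooled library for each. Reads were aligned by the authors to mm9 with the Tuxedo suite (TopHat 1.4.0 in the submitters' processing notes), and FPKM values were deposited by the authors, 1 per gene row and library, already scaled by transcript length and mapped fragments. Counts were not used here, since the files hold none. The annotation and quantifier version are not given in the sources used here.

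The receptors and lists were chosen with earlier results of these data known. Rows of the same symbol were summed, and genes that shared a row with another symbol, 325 of 12742, were left out of counts, and values of joint rows are not reported here. Genes without a row were set to 0. Log2 ratios of FPKM + 1 were called past an absolute value of 1. limma 3.58.1 in R 4.3.3 was run on the genes that reached 1 FPKM in some library (adjusted p by Benjamini-Hochberg). Genes named were the 10 receptors, the ligands with a row, the 3 highest past 2-fold of each list and comparison, marker genes and the 3 nearest profiles. Others were named after their values were seen, namely Grk6, Ly6d in limma, and the related genes and markers set beside a receptor.

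Fragments were estimated from genes with 1 annotated transcript of at least 1500 bases. Of their values below 3.5 steps, between 81.5% and 90.4% lay within 10% of 1, 2 or 3 steps, and between 4.65% and 6.92% lay below 1. In simulated data, deeper libraries were underestimated unless genes without a value had low means, so the estimates may be too low and the intervals too wide. The other scripts were also tested on simulated data. Scripts used scipy 1.17.1, pandas 2.3.3 and numpy 2.4.6 under Python 3.11.15, and matplotlib 3.10.9. Alternatives were the pseudocount, a stricter threshold, rescaling, the highest row per symbol, the handling of joint and missing rows, a filter on low FPKM and, in limma, the prior variance.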

Additional observations from a re-analysis of the deposited data

Results flagged for a closer look

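Ccr7 differed between GRK6-/- and WT in opposite directions in the populations, past 2-fold in each. The log2 ratio of FPKM + 1 was 1.68 in HSC, where WT had no row, and -3.62 in CLP, where GRK6-/- had no row. No test of this difference was made, with 1 library in each group.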

How the results depend on the processing

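Counts of receptors past 2-fold were within 1.5 times the reported ones with ratios centred on their median, with the highest row of a symbol in place of the sum, with joint rows counted for each gene, with joint rows left out per comparison and with missing rows set to 1 fragment. With an absolute log2 ratio of at least 2, 1 receptor of 7 was left in GRK6-/- against WT in HSC (Cxcr4). In CLP against HSC in GRK6-/-, 1 of 7 was left (Ccr9). The share of all genes was not computed at that threshold. A pseudocount of 0.1 gave 6 of 7 in CLP against HSC in GRK6-/- and 6 of 8 in WT, against 56.9% and 56.8% of all genes. For GRK6-/- against WT it gave 3 of 7 in HSC and 6 of 8 in CLP, against 49.8% and 59.2%. With a trended prior variance, limma called 57 genes for genotype and 80 for population, none of them a receptor, and with all genes or a pseudocount of 0.1 it called 0 for population. In the trended fit the prior degrees of freedom were infinite, against 7.43 in the main fit, so a gene's own residual variance had no weight. The cause of the differing numbers of calls was not tested. The log2 ratio of single receptors changed sign under neither the pseudocount nor rescaling where it was past 2-fold. However, the pseudocount of 0.1 moved 14 of 30 of these ratios beyond counting error or the margin set for a missing row, and for GRK6-/- against WT it gave Ccr7 4.53 in HSC and -6.83 in CLP and Cx3cr1 -7.54 in CLP. Shares of all genes past 2-fold stayed within 1.5 times. No paired analysis was possible because each group had 1 library. Leaving out a library was not run because it would leave a group empty. Receptors with few fragments have wide counting intervals, and a missing row allows up to 3 fragments.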

Other observations

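Among 13 other chemoattractant receptors, 10 had a row and 2 had one in all 4 libraries. Ltb4r1, which encodes the high-affinity receptor for leukotriene B4, had 59.1 and 28.2 FPKM in WT and GRK6-/- HSC and 16 and 29.7 in WT and GRK6-/- CLP, above the 10 homing receptors with a value of their own in each library except Ccr9 in GRK6-/- CLP and Ccr2 and Cx3cr1 in WT CLP. P2ry14, a receptor for UDP-glucose, had 9.24, 4.31, 0.145 and 25.3 FPKM in the same order. Cysltr2, a cysteinyl leukotriene receptor, had a row in GRK6-/- CLP alone, at 35.5 FPKM, with a row named Gm9199 over its locus in both WT libraries, and Fpr2, a formyl peptide receptor, in WT CLP alone, at 6.26 FPKM. Between the CLP libraries 6 of 8 were past 2-fold, 4 higher and 2 lower in GRK6-/-, against 50.0% of all genes, and between the HSC libraries 2 of 6, 1 in each direction, against 37.4%.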
